A study of Canis lupus familiaris with 2 samples.

Results

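Highly methylated domains are described here in MDCK cells, an established epithelial line from dog kidney, as 100 kb windows of the autosomes in which at least 80% of the sequenced CpG cytosines carried a methyl group. A CpG site is a cytosine followed by guanine, counted with its partner on the opposite strand, and it was used where both libraries had 5 or more calls. Windows of 100 kb on chromosomes 1 to 38 with 50 or more such sites were given a level, the methylated calls divided by all calls summed over the window. The 22036 windows with a level included 4373, or 19.8% of them, whose mean over the 2 libraries was 80% or more, and these are the highly methylated windows. They were chosen by their measured levels, so the levels themselves are given as a description. The study compared an untreated culture, labelled epithelial, with one that received 5 ng/ml of TGF-beta, labelled mesenchymal, by whole-genome bisulfite sequencing. Both came from the same line, were grown in DMEM with 10% serum, and the untreated culture was kept for 30 days in parallel with the treated one. Each group has 1 library, so differences between the cultures could not be checked against replicates, and intervals are exact 95% binomial intervals that cover counting error only. Calls that come from overlapping mates, PCR copies or neighbouring sites on the same read are not independent, so these intervals are lower limits of the error. Positions are in canFam3, and genes are not analysed here.

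Methyl groups are copied onto new DNA strands after each round of replication by the maintenance enzyme DNMT1, and are added anew by DNMT3A and DNMT3B. In many cultured lines and tumours the genome is split into long partially methylated domains, which tend to be late replicating and poor in genes, and highly methylated domains, which tend to be early replicating and rich in transcribed genes. In the body of transcribed genes the histone mark H3K36me3 recruits DNMT3B. Promoters with many CpG sites usually stay unmethylated inside such domains. The growth factor TGF-beta can turn epithelial cells such as MDCK into motile, mesenchymal-like ones.

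In all, 656122583 calls were deposited for the control and 1019766599 for the TGF-beta library. In highly methylated windows the median window had 29.3 calls per used site in the control and 41.7 with TGF-beta, against 26.8 and 37.8 in the other windows. Mitochondrial DNA, which bounds the share of cytosines that escaped conversion, was at 0.211% in the control and 0.329% with TGF-beta.

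The levels of all windows formed 2 broad groups, and the 80% limit lies inside the upper one rather than in a gap. Between 79% and 80% there were 390 windows, and between 80% and 81% there were 368. The band from 80% to 85% held 1813 windows, that from 85% to 90% held 1498, that from 90% to 95% held 1057, and 5 windows were at 95% or more. These counts come from the values that chose the windows and are a description.

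**Figure D1:**
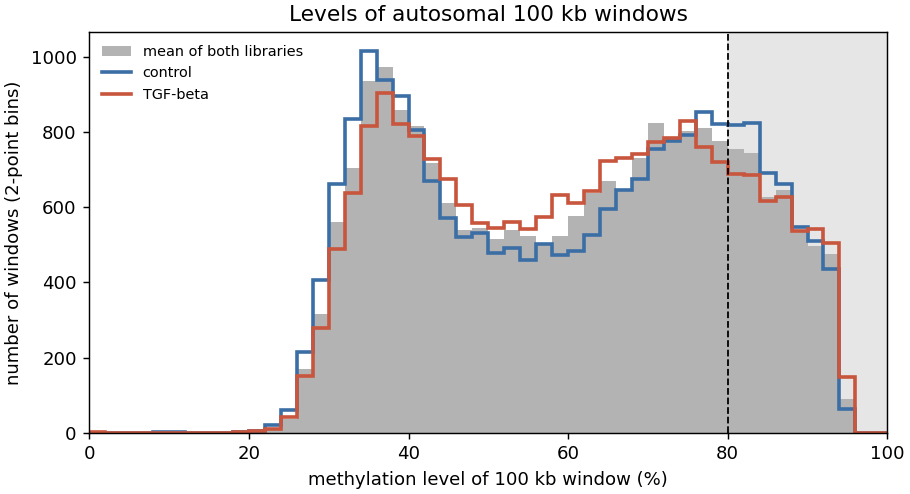
Number of autosomal 100 kb windows (vertical axis) by methylation level in percent (horizontal axis, bins of 2 points), for the control (blue line), the TGF-beta library (red line) and the mean of both (grey fill). The shaded range from the dashed line at 80% holds the 4373 highly methylated windows, at the upper side of the upper group.

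Within the highly methylated windows the control levels ran from 74.5% through a median of 86.1% to 95.2%. With TGF-beta they ran from 70.9% through 86.6% to 95.5%. Summed over all these windows, 86.0% of 138917587 calls were methylated in the control and 86.1% of 224379316 with TGF-beta, with intervals narrower than 0.1 points. The other 17663 windows had medians of 52.7% and 54.8%. Both libraries were at 80% or more in 3958 of the 4373 windows (90.5%), whereas in 236 the control alone was and in 179 the TGF-beta library alone. On each strand taken by itself the mean of the libraries was 80% or more in 4052 windows (92.7%). Averaging the site levels, so that deeply sequenced sites carry no extra weight, left 3623 windows (82.8%) at 80% or more and put 51 under 75%.

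The 3 windows with the highest mean were near the ceiling in both cultures. The window on chromosome 9 from 36200001 to 36300000 reached 94.8% (94.4 to 95.1) in the control and 95.5% (95.2 to 95.8) with TGF-beta over 521 sites. On chromosome 3 from 47100001 to 47200000 it was 95.2% and 94.9%, and on chromosome 7 from 75200001 to 75300000 it was 94.6% and 95.5%. The 3 lowest members, which lie at the limit by construction, were on chromosome 6 from 21300001 (81.6% and 78.4%), chromosome 24 from 22500001 (80.7% and 79.4%) and chromosome 1 from 44900001 (77.5% and 82.6%). The last of these was lower in the control, the other two lower with TGF-beta.

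Every autosome carried highly methylated windows, but not in equal shares. Chromosome 35 had the highest share, 88 of 266 windows (33.1%), followed by chromosome 2 with 238 of 855 (27.8%). Chromosome 19 had the lowest, 66 of 538 (12.3%), and chromosome 38 the next, 33 of 240 (13.8%). The level inside the highly methylated windows varied little between chromosomes: pooled over each, it lay between 84.9% and 87.7% in the control and between 84.7% and 87.2% with TGF-beta. Toward the end of the chromosomes, where the coordinates are highest, the share was 31.6% in the last 1 Mb (120 of 380 windows) and 25.8% from 1 to 3 Mb before the end, against 19.3% more than 10 Mb from it. In the first 1 Mb 78 of 380 windows were highly methylated, close to the 19.9% found more than 10 Mb from the start. Dog autosomes are acrocentric, and their sequences are numbered from the centromere. CpG sites were also denser in the last 1 Mb, with a median of 2046 listed sites per window against 789 farther than 10 Mb away.

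CpG content, which the rule used only as a minimum of 50 sites, was somewhat higher in highly methylated windows than in all others pooled. Highly methylated windows had a median of 958 listed CpG sites (quartiles 671 and 1472), against 810 (571 and 1221) in the other windows. Windows from 70% to 80%, taken alone, had more, with a median of 1137. Against all other windows the median was higher in highly methylated ones on 35 of 38 autosomes. The exceptions were chromosomes 9, 24 and 37. On chromosome 9 the medians were 1071 in highly methylated windows and 1357 in the others, and on chromosome 31 the gap was widest the other way, at 1517 against 556. Windows are not replicates of a condition, so these differences carry no test.

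**Figure D2:**
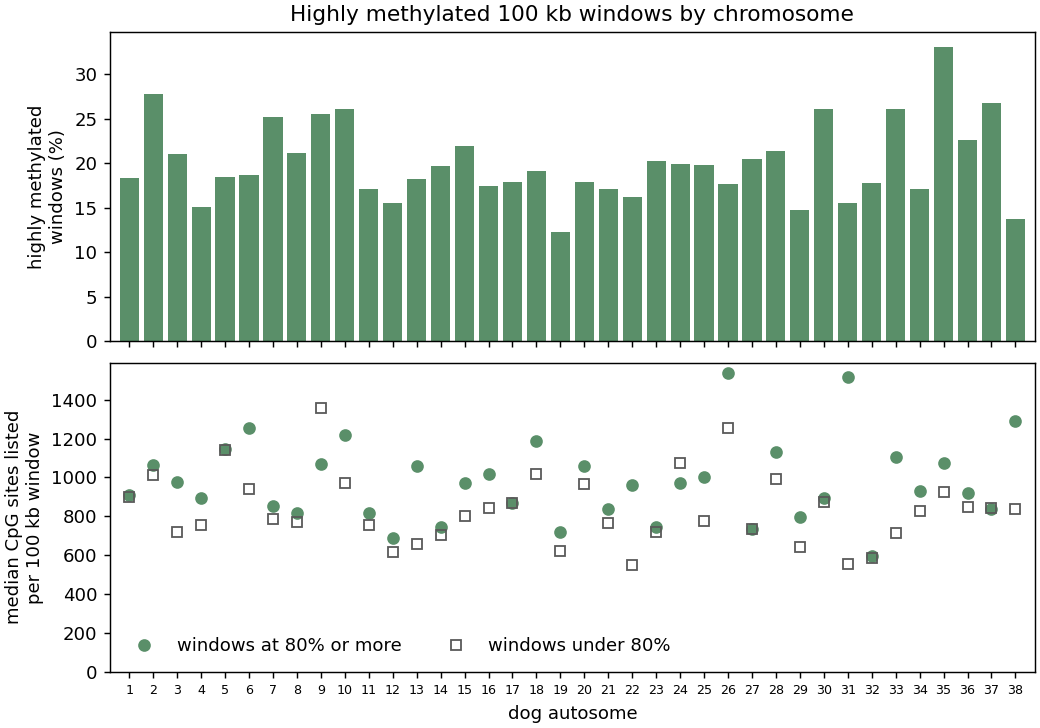
Upper panel: share of the 100 kb windows of each dog autosome that were highly methylated, in percent; the bars run from 12.3% on chromosome 19 to 33.1% on chromosome 35. Lower panel: median number of listed CpG sites per window for highly methylated windows (filled circles) and other windows (open squares), higher for the circles on 35 of 38 autosomes.

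High methylation was found over the whole range of CpG content. With windows ranked by listed sites and split into 10 equal classes, the poorest class (60 to 479 sites) had 6.97% highly methylated windows. The second had 14.9%, the third to the seventh between 19.1% and 21.3%, and the richest class (1943 to 7166 sites) had 28.6%. Windows under 60% followed density far more steeply, from 85.7% of the poorest class to 10.6% of the richest. Among the highly methylated windows themselves the order was the opposite: those at 90% or more had a median of 722 listed sites, those from 85% to 90% had 970.5 and those from 80% to 85% had 1107. The windows just below, from 70% to 80%, had 1137. The 2 members with the most sites, picked out after their values were seen, were on chromosome 12 from 72100001 (7166 sites, 81.1% and 82.3%) and chromosome 8 from 72700001 (6803 sites, 85.5% and 86.1%).

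Isolated CpG sites were as methylated as clustered ones in these windows, but not elsewhere. Each site was classed by the distance to its nearest listed neighbour, a property that played no part in choosing the windows, although the levels did. In highly methylated windows the mean of site levels was nearly flat across these distances. It was 83.3% in the control and 84.0% with TGF-beta for 1932406 sites with a neighbour within 9 bp. For 122331 sites whose nearest neighbour was at least 200 and under 500 bp away it was 85.1% and 86.1%, and for 8464 sites at 500 bp or more 85.1% and 86.3%. In the other windows the same mean declined from 66.4% and 66.8% at 1 to 9 bp, through 46.0% and 46.4% at 50 to 99 bp, to 35.3% and 36.4% at 500 bp or more. The gap between highly methylated and other windows was thus smallest where CpG sites lay close together and widest where a site stood alone, in both libraries. The other windows pool all levels under 80%, and their CpG content differed with level. Median listed sites were 535 in windows under 40% and 1137 in those from 70% to 80%. The decline within a band of level was not measured, so isolation and the level of the surrounding window were not told apart. Isolated sites in partially methylated domains are known as the ones that lose methylation first as cells divide. This is background here and was not tested.

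**Figure D3:**
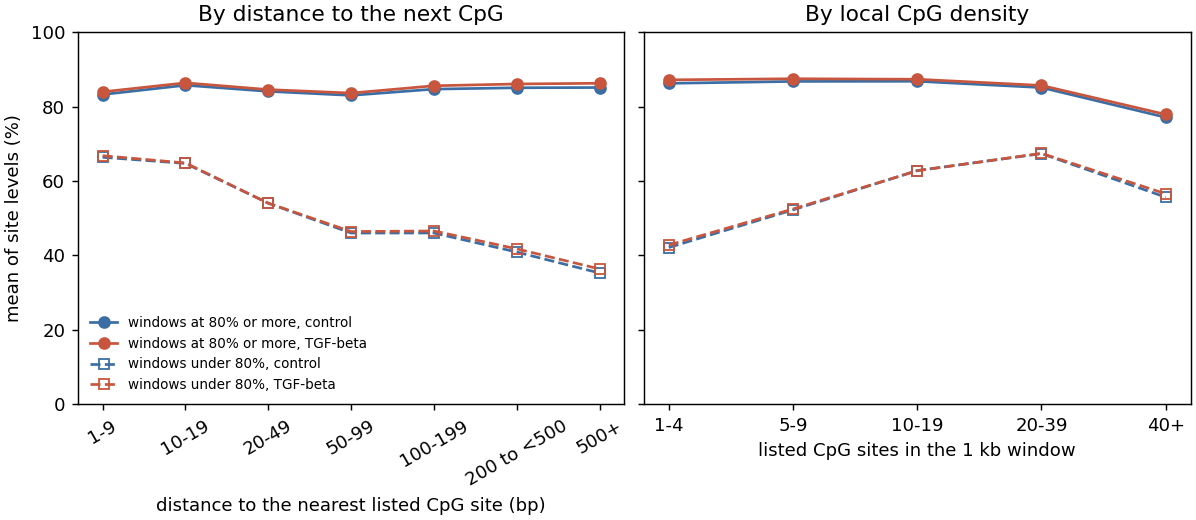
Mean of site levels in percent (vertical axis) by distance to the nearest listed CpG site in bp (left) and by number of listed sites in the 1 kb window (right), for highly methylated windows (filled, solid lines) and other windows (open, dashed lines) in the control (blue) and the TGF-beta library (red). The solid lines stay between 77.1% and 87.5%, whereas the dashed lines reach down to 35.3% on the left and 42.1% on the right.

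At 1 kb, levels in highly methylated windows were also nearly flat over all but the densest class of local CpG density. In highly methylated windows, 1 kb windows with 1 to 4 listed sites had a mean site level of 86.3% in the control and 87.2% with TGF-beta. Those with 5 to 9 and with 10 to 19 sites were both at 86.8% in the control, and those with 20 to 39 at 85.1%. Only the densest class, 40 sites or more, was lower, at 77.1% and 77.9%. Elsewhere the sparsest class was at 42.1% and 42.8%, the class of 20 to 39 sites was highest at 67.4% in both libraries, and the densest was at 55.7% and 56.6%. Of the sparsest 1 kb windows, 1363 of 90642 were under 20% inside highly methylated windows and 35.3% elsewhere.

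Methylation inside the highly methylated windows was broken by short unmethylated stretches. Of 307778 windows of 1 kb with 5 or more used sites, 82.6% were at 80% or more by the mean of both libraries. There were 4212, or 1.37%, under 20%. Elsewhere 8.75% were under 20% and 26.1% at 80% or more. The low windows formed 3377 separate stretches, of which 2662 were a single 1 kb window, 617 were a pair and 98 were longer. CpG-dense windows, with 40 or more listed sites and so of the kind that includes CpG islands, made up 1819 of the 4212. In that class 8.32% were under 20% and 74.2% were at 80% or more, against 18.7% and 29.4% in other windows. The rule favours this, since a window with much unmethylated CpG-dense sequence has a lower summed level, so these shares are a description.

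The longest unmethylated stretch covered 8 windows of 1 kb on chromosome 13 from 37470001 to 37478000. Its 446 listed sites were at 1.84% (1.55 to 2.18) in the control and 3.61% (3.36 to 3.88) with TGF-beta. It lies in the highly methylated window from 37400001, at 80.8% and 81.9%, which held 14 low 1 kb windows. The window with the most, 18, was the first of chromosome 15, from 1 to 100000. Its 1305 used sites held 113387 calls in the control and 104362 with TGF-beta. That is more per site than in the median member, at 29.3 and 41.7. That window was at 83.5% and 80.5% by summed calls but at 62.8% and 61.7% by the mean of site levels, so it is a member only with sites weighted by their calls. Both were singled out after their values were seen, as the only members with 10 or more low windows.

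The height of a window went with how many low stretches it held. Among members at 90% or more, 84.2% had no 1 kb window under 20%, and 2.64% had an unmethylated CpG-dense window. From 85% to 90% these shares were 50.1% and 20.6%, and from 80% to 85% they were 30.0% and 46.0%. Over all members 2189 (50.1%) had no low window, and their median level was 88.8%, against 85.5% in the 1041 with a single one and 82.8% in the 216 with 4 to 9. Low windows pull the level down by their own calls. They held 2.89% of the used sites, and without them the pooled level was 87.5% in the control and 87.9% with TGF-beta. The standard deviation of 1 kb levels inside a member was 14.4 points at the median in the control and 14.3 with TGF-beta. In windows from 70% to 80% it was 19.7 and 19.6 points, and in those from 40% to 60% it was 18.8 and 19.7.

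At single sites the highly methylated windows were far from uniform saturation. In the control 80.9% of 4976290 sites were at 80% or more, 12.7% lay between 20% and 80%, and 6.40% were under 20%. With TGF-beta these shares were 81.9%, 11.9% and 6.20%. Elsewhere 43.7% of sites were at 80% or more in the control and 44.6% with TGF-beta. Depth sets how often a site reads as fully methylated, so the shares were also computed for 10 calls drawn from each of 4383592 sites that had 10 or more calls in each library. All 10 calls would be methylated at 47.6% of sites in the control and 50.3% with TGF-beta, against 22.1% and 24.1% elsewhere. Between 2 and 8 of 10 would be methylated at 21.1% and 19.5% of sites. Thus at equal numbers of calls the TGF-beta library held slightly fewer intermediate sites and more fully methylated ones, inside these windows and outside them. Calls from overlapping mates or PCR copies would make equal calls differ from equal molecules, which was not tested.

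Long unbroken stretches of highly methylated windows were few. The 4373 windows fell into 2148 runs of adjacent members. A single window made up 1136 of the runs and 26.0% of the members, runs of 3 or more held 2243 members (51.3%), and 12 runs reached 10 windows, or 1 Mb. Beyond the edge of runs of 3 or more the median level over all flanks fell most at the first window and then gradually. Such medians do not show how sharp single borders are. At the edge window the median was 85.8% in the control and 86.4% with TGF-beta, the first window outside 73.5% and 72.1%, the third 70.4% and 69.8%, and the tenth 64.7% and 64.9%. The first window outside is under 80% by construction, but 10.3% of these windows were under 60%, whereas 43.9% of the tenth were. Of the second windows outside, 28.1% were highly methylated. At 1 Mb from a run the share was 20.9%, near the 19.8% of all windows.

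Among the longest runs, 4 covered 1.2 Mb each, and their levels matched closely between the libraries. The highest, on chromosome 13 between 34600001 and 35800000, had 88.2% (88.2 to 88.3) in the control and 88.9% (88.9 to 89.0) with TGF-beta over 26644 sites. In the 20 windows around it the control lay between 30.7% and 76.9%, so the run stood between lower stretches on each side. On chromosome 7 from 79300001 to 80500000 the run was at 87.9% and 88.3%, and its flank on the side of lower coordinates reached 93.0% in the control before a break. The run on chromosome 1 from 47000001 to 48200000 was at 84.6% and 84.9%, and that on chromosome 29 from 38700001 to 39900000 at 84.4% and 84.3%. Around the last, 13 of 20 flanking windows were under 60% in both libraries. The next in length, at 1.1 Mb, were on chromosome 30 from 34600001 to 35700000, at 89.0% and 88.0%, and on chromosome 37 from 13100001 to 14200000, at 88.0% and 88.7%.

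**Figure D4:**
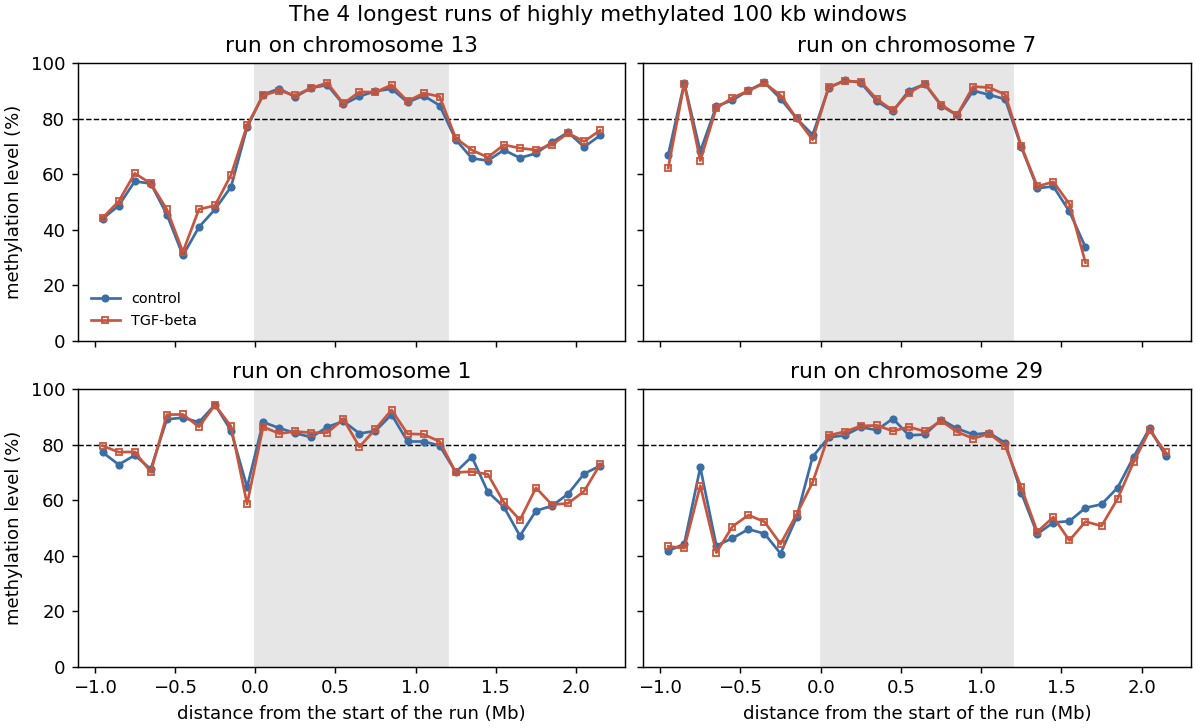
Methylation level in percent of each 100 kb window (points) along the 4 runs of 12 adjacent highly methylated windows (shaded) and up to 10 windows on each side, by distance from the start of the run in Mb, in the control (blue) and with TGF-beta (red). The dashed line is at 80%, and flanks fall to 30.7% beside the run on chromosome 13 in the control.

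The comparison of the cultures asks how far these domains differed after 30 days with TGF-beta. At the median they were slightly higher, and they spread less than other windows. The difference, TGF-beta minus control, had a median of 0.44 percentage points by summed calls (quartiles -0.66 and 1.40), and was above 0 in 2722 of 4373 windows (62.2%). By the mean of site levels the median was 0.70 points (quartiles 0.11 and 1.34), above 0 in 3413 windows (78.0%). On single chromosomes the median by site levels ran from 0.41 to 0.97 points and was above 0 on 38 of 38, and by summed calls on 37 of 38, the exception being chromosome 38 at -0.04. The windows just below, from 70% to 80%, had medians of -0.75 points by summed calls and 0.77 by site levels, so a small gain by site levels was not particular to the highest windows. Windows under 70% had 1.24 and -0.34 points. Within the members, those from 80% to 85% had -0.01 points by summed calls and 0.82 by site levels. Those from 85% to 90% had 0.61 and 0.79, and those from 90% to 95% had 0.59 and 0.49. By summed calls the gain was thus absent at the median of members from 80% to 85%. The bound on failed conversion was also higher with TGF-beta, at 0.329% against 0.211%, and its part in these differences was not tested.

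**Figure D5:**
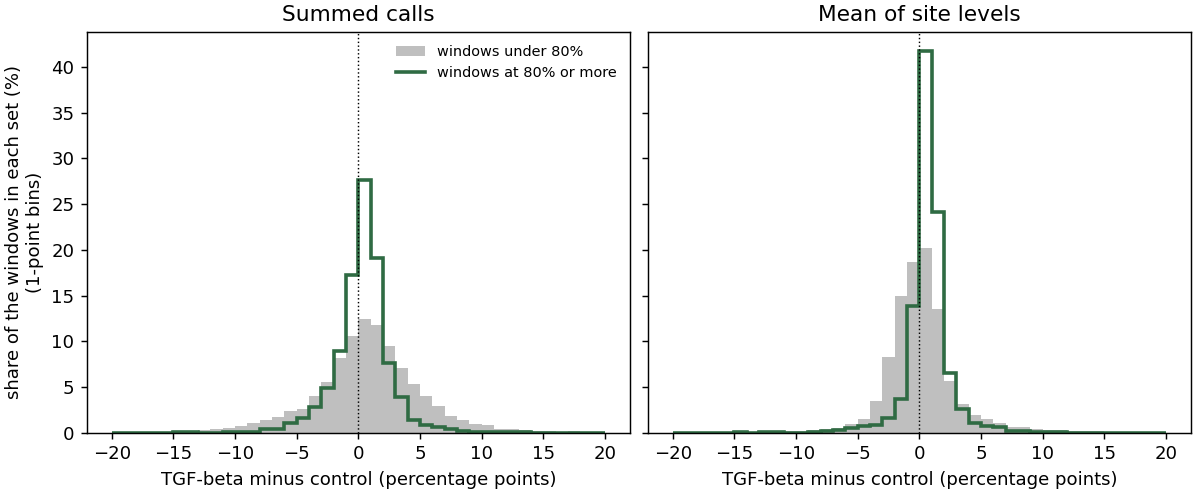
Share of windows in percent (vertical axis, bins of 1 point) by the difference TGF-beta minus control in percentage points (horizontal axis), from summed calls (left) and from the mean of site levels (right), for highly methylated windows (green line) and other windows (grey fill). The green distribution is narrower in both panels and has its median at 0.44 points on the left and 0.70 on the right.

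Few highly methylated windows differed by much. A difference of 5 points or more was found in 109 higher (2.49%) and 103 lower windows (2.36%), where 11.7% and 7.68% of all autosomal windows were higher and lower by as much. At 10 points there were 11 higher and 11 lower, with 2.39% and 1.48% of all windows. A level near 100% leaves little room to gain, and a window that lost much has a lower mean and is less often a member, so the smaller spread is in part built into the rule. The libraries were also compared by the unmethylated share, which was 13.9% in the control and 13.4% with TGF-beta at the median. By quartiles, the ratio of the libraries spread more in these windows than in all other windows together. It spread slightly less than in windows from 70% to 80%. As log2 of TGF-beta over control, this ratio had a median of -0.06 with quartiles -0.18 and 0.07, against -0.02 with -0.10 and 0.05 in all other windows and 0.04 with -0.08 and 0.19 in those from 70% to 80%. By site levels 5 points were reached by 89 higher and 56 lower members, where 5.03% and 2.7% of all windows did so. Of the 109 higher windows 109 had the same sign by site levels and 81 kept 5 points. Of the 103 lower ones only 70 had the same sign and 47 kept 5 points, so the lower set depended more on how calls were spread over sites.

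Comparing the strands of DNA, which are read from separate molecules, shows a spread within each library. The strands of a library share its culture, conversion and preparation, so differences between the libraries in these do not enter it. Over sites with 5 calls per strand, a gap of 5 points or more between the control's strands was found in 75 of 4361 members (1.72%), and between the strands with TGF-beta in 186 (4.27%). Between the libraries 278 members (6.37%) differed as much by plus-strand calls, and 271 (6.21%) did by minus-strand calls. Both strands were higher by 5 points or more in 74 members, both were lower in 63, and they went opposite ways in 2. In the other windows 11.8% and 20.0% had such a gap between the strands of a library, 1560 of 17333 were higher and 1124 lower on both strands, so all of these shares were larger there. Depth was not even between the libraries, and members were split into 5 classes by the log2 ratio of calls per site. The median difference by site levels was 0.55, 0.71, 0.72, 0.76 and 0.73 points from the lowest ratio to the highest, and by summed calls 0.61, 0.56, 0.23, 0.36 and 0.50 points. Members lower by 5 points numbered 39, 21, 22, 14 and 7 and those higher 34, 34, 16, 14 and 11. Both were thus fewer where the ratio was high. Median listed sites per window also rose across the classes, from 593 through 711, 922 and 1242 to 2017. The parts of depth ratio and CpG content were not told apart here.

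Of the 5 largest gains among highly methylated windows, 4 lay in 2 places. On chromosome 5 the window between 44200001 and 44300000 stood at 74.5% (73.8 to 75.1) in the control and 88.1% (87.6 to 88.5) with TGF-beta. The window from 44400001 was at 77.3% and 90.2%, and the one between them, at 64.6% and 87.7%, differed by 23.2 points but was not a member because its mean was under 80%. On chromosome 31 from 21400001 the level was 77.9% (77.4 to 78.4) against 91.0% (90.7 to 91.3), and from 21500001 it was 75.5% against 88.3%. On chromosome 21 from 20500001 it was 76.9% against 89.0%. These 5 windows were under 80% in the control and above the members' median of 86.6% with TGF-beta. A member with so large a gain has a high TGF-beta level by the rule, so these positions are a description. By site levels the 5 windows differed by 10.3 to 12.9 points.

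The 5 largest losses lay in 4 places. On chromosome 19 the window between 35500001 and 35600000 stood at 89.5% (89.1 to 89.9) in the control and 70.9% (70.4 to 71.4) with TGF-beta, and that from 35400001 at 89.9% and 75.1%. Each held 28 windows of 1 kb called lower, and no other member held 20 or more. On chromosome 35 from 18700001 the level was 88.1% against 73.8%, on chromosome 18 from 22900001 it was 87.9% against 73.6%, and on chromosome 24 from 14300001 it was 87.6% against 73.8%. Next to the window on chromosome 18, that from 23000001 was at 86.7% and 65.6% and so fell short of the rule. By site levels the 5 differences were between -12.8 and -18.3 points, and each was lower by 11 points or more on both strands.

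At 1 kb, summed calls were compared by Fisher's exact test (two-sided, Benjamini-Hochberg adjustment over the genome), and windows were called at an adjusted p under 0.05 and 20 points of difference. The test compares the calls of these 2 libraries and not the conditions. It takes calls as independent, which those of neighbouring sites on the same read are not, so adjusted p can be too small. Inside highly methylated windows 3519 of 307778 (1.14%) were called higher and 1963 (0.638%) lower, against 2.22% and 1.43% of all 1497924 windows tested in the genome. A further demand of 10 points on both strands left 2692 and 1346, and one of 20 points by site levels left 1720 and 767. The median window called higher was at 49.7% in the control and 77.5% with TGF-beta, and those called lower 77.5% and 49.2%. Windows above 80% cannot gain 20 points, so higher calls inside these domains come from their less methylated parts. At least 1 higher call was found in 2052 members (46.9%), at least 1 lower call in 1323 (30.3%) and neither in 1651 (37.8%). The 72 members (1.65%) with 5 or more higher calls held 13.1% of those calls, and the 22 (0.503%) with 5 or more lower calls held 10.7%.

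The largest losses at 1 kb lay in 100 kb windows that themselves differed little between the cultures. The largest loss, on chromosome 35 between 12895001 and 12896000, was from 95.8% (92.1 to 98.0, 212 calls) in the control to 20.3% (16.9 to 23.9, 533 calls) with TGF-beta, inside a window at 87.4% and 87.2%. On chromosome 31 from 30356001 it was 91.6% against 16.2%, in a window at 81.1% and 80.3%. The other losses were on chromosome 2 from 54556001 (83.6% against 18.5%), chromosome 24 from 39661001 (87.6% against 22.6%) and chromosome 23 from 6986001 (90.5% against 27.1%). Their 100 kb windows were at 84.5% and 83.4%, at 81.2% and 82.4%, and at 92.7% and 92.0%. By site levels these 5 differences were between -52.1 and -65.9 points.

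In the gaining direction, chromosome 9 between 32108001 and 32109000 went from 29.9% (26.0 to 34.2, 501 calls) in the control to 94.5% (93.1 to 95.7, 1306 calls) with TGF-beta, inside a window at 88.0% and 88.8%. On chromosome 37 from 13190001 the level was 7.78% (5.59 to 10.5) against 70.1% (66.8 to 73.3), within the first window of the 1.1 Mb run on that chromosome. The others were on chromosome 3 from 29792001 (19.5% against 79.2%), chromosome 32 from 1222001 (20.5% against 80.0%) and chromosome 1 from 92386001 (18.8% against 77.7%). The 100 kb windows around these last 3 were at 80.4% and 85.4%, at 79.5% and 83.6%, and at 85.4% and 86.5%, and that around the gain on chromosome 37 at 82.99% and 84.98%. With TGF-beta the windows on chromosomes 37, 3, 32 and 1 were still below the 100 kb around them, and that on chromosome 9 was above it. The gain on chromosome 3 was smaller by site levels, at 42.5 points against 59.7. Of 1052 gains that met the naming rule 36 went from under 20% to 50% or more, and of 459 losses 38 went from 80% or more to under 50%.

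Within the highly methylated windows, 1 kb windows between 20% and 60% were higher with TGF-beta as a class. To keep the choice of windows apart from the measurement, 1 kb windows with at least 20 calls on each strand in each library were classed by their plus-strand level and compared on the minus strand. Windows between 20% and 60% on the plus strand differed by a median of 2.28 points on the minus strand (quartiles -6.25 and 11.1, 12670 windows), and 57.3% of them were above 0. In other 100 kb windows the same class differed by -0.02 points (quartiles -7.43 and 7.54, 342212 windows). Classed on the minus strand and measured on the plus strand, the medians were 2.21 and 0 points. By site levels they were 2.01 and -0.29 points on the minus strand. The median in highly methylated windows was above 0 on 36 of 38 autosomes, and above that of the other windows on 36 by summed calls and 38 by site levels. Calls per site with TGF-beta relative to the control, as a log2 ratio, were also higher for these windows, at 0.65 against 0.53, and its part was not tested. From 60% to 80% on the plus strand the medians were 1.23 points here and 0.83 elsewhere, and from 80% to 90% they were 0.64 and 0.86. Windows already at 90% or more on the plus strand, 61.7% of this set, differed by 0.39 points, against 0.47 elsewhere. A gain was thus not particular to highly methylated windows above 60%. The other 100 kb windows were not split by level for this comparison.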

How the data were processed

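Genomic DNA of 2 MDCK cultures, 1 control and 1 TGF-beta library, was sonicated, ligated to methylated adapters, bisulfite converted and sequenced in paired ends, per the labels' protocols. The deposited files give, per cytosine, a count of methylated and a count of unmethylated calls made by the authors. The submitters' processing notes name Bismark, Bowtie 0.12.8 and canFam3, while the labels' protocol names SOAPaligner2. Duplicate removal and other filters: not given in the sources used here; duplicates or overlapping mates that were kept would narrow the intervals. Which count is methylated was read from mitochondrial DNA. In each file 1 line without a chromosome (12 and 6 calls) was left out.

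Cytosines at neighbouring positions gave 25888236 CpG sites, 90.6% with both strands listed; odd runs, with 0.00656% of calls, were left out. Site minimum, windows and levels are as given above. Groups follow the labelled agent. Members, lists and naming rules were chosen with earlier results of these data known. Named were the longest runs (4 of 1.2 Mb and 2 of 1.1 Mb), the 3 highest and 3 lowest members, 5 gains and 5 losses of at least 2 points on both strands, 5 gains and 5 losses among called 1 kb windows with 10 sites, 200 calls per library and 10 points on each strand, and the 2 chromosomes with the highest and the 2 with the lowest share. The gene lists and sequences that were planned are not used here, as no genome or annotation of canFam3 was used. Fisher's exact test was tested on simulated data with independent calls, a single level per window and losses only. Its rate of false calls in the real data was thus not measured. Files were read with pyarrow 21.0.0 in Python 3.11.15, tables made with pandas 2.3.3 and numpy 2.4.6, tests and intervals computed with numba 0.67.0 and scipy 1.17.1, and plots drawn with matplotlib 3.10.9. Alternatives covered site depth, weighting, grid, strand, site minimum, highest depth and the level limit.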

Additional observations from a re-analysis of the deposited data

How the results depend on the processing

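No paired analysis was possible because each group has 1 library. The number of highly methylated windows stayed between 3664 (mean of site levels) and 4645 (plus strand calls only) under the 7 alternatives run, against 4373, and the median difference stayed above 0 in each. It was 0.67 points with windows chosen and compared by site levels, 0.70 with the same windows compared by site levels, 0.54 on the plus strand, 0.51 on the minus strand and 0.53 with the limit at 82%, against 0.44. Windows lower by 5 points were 43 (chosen and compared by site levels) and 56 (same windows), against 103. Where both libraries had to be at 80% or more, 46 were higher and 25 lower by 5 points. That demand leaves out the 236 windows with only the control and the 179 with only the TGF-beta library at 80%. Fewer large differences are thus built into it. With the limit at 82%, 70 were higher and 48 lower, in part because fewer windows enter. Median listed sites were 917 at that limit. The share of 1 kb windows under 20% was 1.04% by site levels, 1.31% with both libraries at 80%, 1.19% at 82% and 1.85% with 10 sites per 1 kb window, against 1.37%. Called 1 kb windows were 1720 and 767 when 20 points by site levels were also required. Pooled levels were 86.06% and 86.2% with 10 calls per site and 85.7% and 86.3% by site levels. Apart from what the choice of windows builds in, the cause of these differences was not tested. Comparisons of the same windows by site levels, pooled levels under other settings and site levels of named regions were added after seeing the data. Without replicates, depth narrows the counting error of a level but says nothing of the spread between cultures.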

Other observations

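Chromosome X lay outside the rule. Of its 1239 windows of 100 kb with 50 or more used sites, 78 (6.30%) had a mean of 80% or more, against 19.8% of autosomal windows. Those 78 had medians of 84.3% in the control and 82.8% with TGF-beta and 1028.5 listed sites. Over the whole chromosome the medians were 45.6% and 48.6%.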
